A study of Mus musculus with 6 samples.

Results

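The miR-34 family was followed here in nephron progenitors and whole kidney of the mouse embryo. Its members were chosen by name, as every mature strand of mmu-miR-34a, mmu-miR-34b and mmu-miR-34c in the table of known miRNA counts. This gave 4 strands of the 535 mature miRNAs in the table, 1 from the mir-34a locus (miR-34a-5p) and 3 from the mir-34b/c locus (miR-34b-5p, miR-34b-3p and miR-34c-5p). The other arms, miR-34a-3p and miR-34c-3p, were not analysed here.

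Small RNA was sequenced from wildtype CD1 embryos at embryonic day 15.5, in 3 libraries of cells enriched for nephron progenitors (MNP1, MNP2 and MNP6) and 3 libraries of whole kidney (MWK1, MWK2 and MWK6). Nephron progenitors are the mesenchymal cells that form the epithelium of the nephron, and here they were the cells that remained after magnetic beads had taken out those with CD140a, CD105, Epcam or Ter119, which mark stroma, endothelium, epithelium and erythroid cells. The whole kidney samples were the kidneys left over from the partial digestion, and their RNA was purified with a Mini Kit, where that of the progenitors had a Micro Kit, so kit, isolation and group cannot be told apart. Each replicate is described as material pooled from a litter, but MNP6 and MWK6 match no single sample name, so their replicate is not stated. Progenitors and remnants were taken from 3 litters in all, so libraries of the groups may share a litter. Some stromal cells are known to remain after the depletion.

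Values per library are given throughout in the order MNP1, MNP2, MNP6 for nephron progenitors and MWK1, MWK2, MWK6 for whole kidney. Counts on known miRNAs, with 1 value per mature strand, totalled 393951, 436112 and 333850 in the progenitor libraries and 349241, 360221 and 355848 in the whole kidney libraries. Levels are given as CPM, the count relative to the library total after scaling with the TMM method of edgeR. At this depth 3 counts correspond to between 6.54 and 9.45 CPM, so strands with a handful of counts are measured coarsely. Reads carry no molecular identifiers, so each interval given covers counting error only. The p-values set the difference between groups against the spread between libraries, and they treat the 6 libraries as independent.

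The miR-34 miRNAs are best known as targets of the tumour suppressor p53, which raises transcription of both loci, and as repressors of genes that drive the cell cycle. Together with the miR-449 miRNAs, which share their seed, they are needed for the formation of motile cilia in multiciliated cells of the airways and the reproductive tract. The seed is the stretch of positions 2 to 8 from the 5′ end that pairs with target mRNAs, so strands with equal seeds are thought to share many targets.

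The mature sequences show which members carry the family seed. They were taken from RefSeq on GRCm38.p6, which held 3 of the 4 strands, and the seed is in capitals. The strand without a sequence was miR-34c-5p, so its seed is not shown and it is not in the count of seed carriers below.
miR-34a-5p: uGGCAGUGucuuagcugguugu
miR-34b-5p: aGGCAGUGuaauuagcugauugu
miR-449a-5p: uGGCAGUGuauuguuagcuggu
miR-34b-3p: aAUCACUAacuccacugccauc
The first 3 share the seed GGCAGUG, and among the 440 mature miRNAs of the table with a RefSeq sequence they were the only 3 that carry it. miR-34b-3p, from the opposite arm of its hairpin, has the seed AUCACUA. Counted from the 5′ end, miR-34a-5p and miR-34b-5p were identical at 11 of 22 positions, and miR-34a-5p and miR-449a-5p at 15 of 22. miR-34b-5p and miR-34c-5p are known to be close in sequence, and how the counting divided reads that fit both was not tested. Each of the 4 strands stands on a single row of the table, paired with the hairpin it is named for.

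In mm10 the mir-34a hairpin spans 150068454 to 150068555 of chromosome 4, plus strand. GENCODE places it between the protein-coding genes H6pd and Gpr157, 59430 and 18809 bases away, and it touches an unconfirmed transcript, Gm37795, on the same strand. The mir-34b hairpin (51103562 to 51103645) and the mir-34c hairpin (51103034 to 51103110) are both on chromosome 9, minus strand, with 451 bases between them. They are within an intron of Btg4, a protein-coding gene on the opposite strand. mir-34b and mir-34c are transcribed together, so their strands share a source and are not independent of each other.

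The main strands of both loci were lower in nephron progenitors than in whole kidney. miR-34c-5p, the most abundant, fell to 40.7% of its whole kidney mean, miR-34b-5p to 45.6% and miR-34a-5p to 11.2%. miR-34b-3p, from the opposite arm of mir-34b, did not pass the test. All 4 strands passed the filter of a sum above 10 counts, and 3 of them were past the threshold of edgeR's quasi-likelihood test (adjusted p of 0.05 over 525 miRNAs), each lower in nephron progenitors, though the call of miR-34b-5p was lost in 5 of 16 alternatives. Over all 525 miRNAs, 36.6% passed in either direction and 17.1% passed as lower in nephron progenitors. The median log2 fold change (nephron progenitors over whole kidney) was -1.20 over the 4 strands and -0.01 over all miRNAs tested. For the same 3 strands every progenitor library lay below every whole kidney library, which held for 23.2% of all miRNAs. In bulk RNA, fewer cells that make a miRNA and less of it per cell cannot be told apart.

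**Figure D1:**
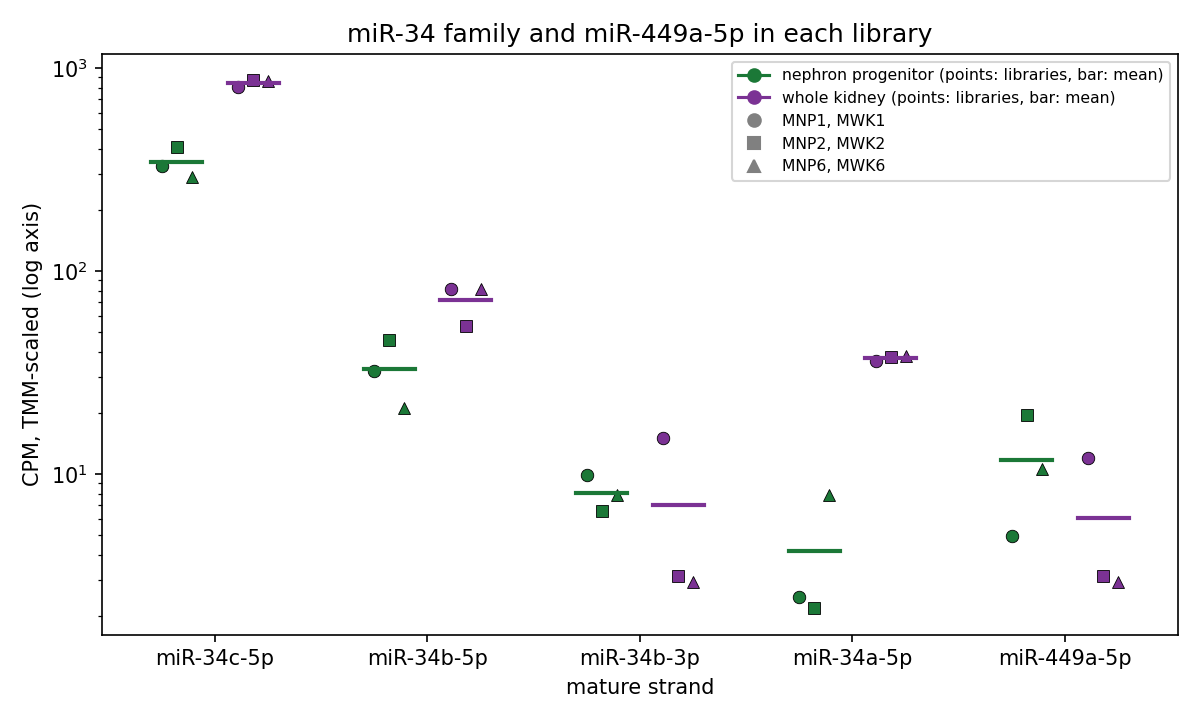
CPM (log axis) of each miR-34 strand and of miR-449a-5p, with a point per library and bars at group means (n = 3). For miR-34c-5p, miR-34b-5p and miR-34a-5p the progenitor points lie below all whole kidney points, while those of miR-34b-3p and miR-449a-5p overlap between the groups.

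miR-34c-5p carried most of the family's reads in both groups. Its raw counts were 134, 188 and 111 in the progenitor libraries and 267, 276 and 296 in the whole kidney libraries. In CPM these were 330, 410 and 292 against 803, 869 and 864. The whole kidney libraries were close to each other, and among the progenitor libraries MNP2 was highest and MNP6 lowest, with no overlap between the groups. The mean was 344 CPM (SD 60.1, n = 3) against 845 CPM (SD 36.8, n = 3). The log2 fold change was -1.30 with a standard error of 0.20 (edgeR's quasi-likelihood test, adjusted p = 0.00022), and the gap was larger than the spread of either group. By mean CPM the strand ranked 94 of 525 in whole kidney and 140 in nephron progenitors. By the size of its fall it ranked 65 of 525. The call held in each of 17 alternatives, with an adjusted p from 2.0e-07 to 0.011.

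miR-34b-5p, which comes from the same transcript and carries the same seed, was also lower but less abundant. Its raw counts were 13, 21 and 8 in the progenitor libraries and 27, 17 and 28 in the whole kidney libraries. In CPM these were 32.0, 45.7 and 21.0 against 81.2, 53.5 and 81.7. The groups did not overlap, but MNP2 and MWK2 lay near each other, and their counting intervals did overlap (13.0 to 32.1 counts for MNP2 and 9.90 to 27.2 counts for MWK2, exact Poisson). The log2 fold change was -1.11 with a standard error of 0.34 (edgeR's quasi-likelihood test, adjusted p = 0.019). This call was lost in DESeq2's Wald test (adjusted p = 0.062), and with edgeR it was lost without MWK1 (adjusted p = 0.086), without MWK6 (adjusted p = 0.074) and in the 4 libraries with replicate numbers (adjusted p = 0.15). Over its 16 alternatives the adjusted p was from 0.014 to 0.16.

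miR-34b-3p, the arm with the other seed, was near the limit of detection. It had 4, 3 and 3 counts in the progenitor libraries and 5, 1 and 1 in the whole kidney libraries. The highest and the lowest values both came from whole kidney, so the groups overlapped. The log2 fold change was 0.18 with a standard error of 0.78 (edgeR's quasi-likelihood test, adjusted p = 0.89), and it was 1.32 without MWK1, -0.15 without MWK2 and -0.18 without MWK6. With group totals of 10 and 7 counts, the ratio of nephron progenitors to whole kidney was 1.14, with an exact 95% interval from 0.391 to 3.52. The ratio of the other arm, miR-34b-5p, was 0.465 (0.310 to 0.689), which lies within this interval, so a difference between the arms of mir-34b was not detectable at this depth.

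miR-34a-5p, the only strand measured from the chromosome 4 locus, had the largest fold change of the 4 strands and rests on few reads. It had 1, 1 and 3 counts in the progenitor libraries and 12, 12 and 13 in the whole kidney libraries. In CPM these were 2.46, 2.18 and 7.88 against 36.1, 37.8 and 37.9. The whole kidney libraries were nearly equal, all well above the progenitor libraries, of which MNP6 was highest. The means were 4.17 CPM (SD 3.22, n = 3) against 37.3 CPM (SD 1.03, n = 3). The log2 fold change was -3.11 with a standard error of 0.53 (edgeR's quasi-likelihood test, adjusted p = 0.00048), which ranked 25 of 525 by the size of the fall. From group totals of 5 and 37 counts, the level in whole kidney was 9.29 times that in nephron progenitors, with an exact 95% interval from 3.64 to 30.3. The interval of the same ratio for miR-34c-5p was 2.16 to 2.74, around 2.43. MNP6 held 3 of the 5 progenitor counts, and without it the log2 fold change of miR-34a-5p was -3.86. The call held in each of 16 alternatives, with an adjusted p from 0.00046 to 0.010.

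Ordered by level, whole kidney held miR-34c-5p (845 CPM), miR-34b-5p (72.2 CPM), miR-34a-5p (37.3 CPM) and then miR-34b-3p (7.03 CPM). In nephron progenitors the order was miR-34c-5p (344 CPM), miR-34b-5p (32.9 CPM), miR-34b-3p (8.09 CPM) and then miR-34a-5p (4.17 CPM). The values of the last pair in nephron progenitors overlapped, from 6.54 to 9.85 CPM for miR-34b-3p and from 2.18 to 7.88 CPM for miR-34a-5p, and both had 3 counts in MNP6. These are read counts without a length term, and adapters join different small RNAs with unequal efficiency, so an order between strands is less certain than a difference of a strand between groups.

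Summed over its strands, the mir-34b/c locus was at 372, 462 and 321 CPM in the progenitor libraries and at 899, 926 and 949 CPM in the whole kidney libraries. The groups did not overlap (exact permutation test, two-sided p = 0.1, which is the smallest that 3 against 3 libraries allow). The means were 385 CPM (SD 71.5, n = 3) against 925 CPM (SD 24.8, n = 3), so nephron progenitors held 41.6% of the whole kidney level. The log2 ratio of the means was -1.26 for the mir-34b/c locus and -3.16 for the mir-34a locus, the latter being -4.04 without MNP6.

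Shares within a library do not depend on how libraries are scaled, and they set the loci against each other directly. miR-34a-5p made up 1 of 152, 1 of 213 and 3 of 125 family counts in the progenitor libraries, or 0.658%, 0.469% and 2.40%. In the whole kidney libraries it made up 12 of 311, 12 of 306 and 13 of 338, or 3.86%, 3.92% and 3.85%. The whole kidney shares were almost equal, and all progenitor shares lay below them. The exact 95% binomial interval in MNP6 was 0.498% to 6.85%, which took in the whole kidney values. The mean share was 1.18% (SD 1.06, n = 3) against 3.88% (SD 0.0404, n = 3). With 3 libraries a side the exact permutation test gave its smallest two-sided p, 0.1 (adjusted p = 0.4 over the 4 shares compared), and at this size it could not have passed a threshold of 0.05.

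Within the mir-34b/c locus the balance of products did not separate the groups. Of the reads of miR-34b-5p and miR-34c-5p, miR-34b-5p made up 13 of 147, 21 of 209 and 8 of 119 in the progenitor libraries and 27 of 294, 17 of 293 and 28 of 324 in the whole kidney libraries. The shares, 8.54% and 7.88% on average, were interleaved between the groups (exact permutation test, two-sided p = 0.6, adjusted p = 0.7). miR-34c-5p held 88.4% of all family counts in nephron progenitors (SD 0.344, n = 3) against 87.9% in whole kidney (SD 2.19, n = 3), with p = 0.7 in the exact permutation test. For the mir-34b hairpin the 5p arm took 13 of 17, 21 of 24 and 8 of 11 counts in the progenitor libraries and 27 of 32, 17 of 18 and 28 of 29 in the whole kidney libraries. These shares, 78.9% (SD 7.68) and 91.8% (SD 6.51) on average, overlapped between the groups (exact permutation test, two-sided p = 0.2, adjusted p = 0.4).

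**Figure D2:**
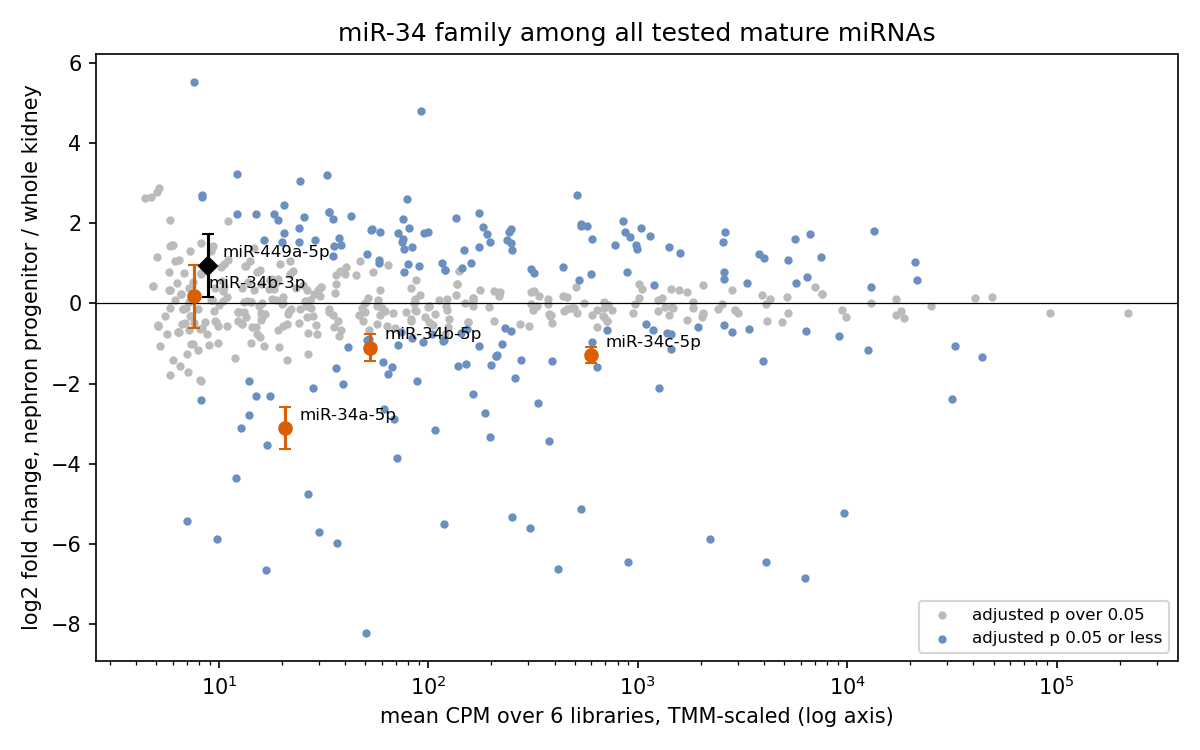
Log2 fold change (nephron progenitor over whole kidney) of the 525 tested miRNAs against mean CPM over the 6 libraries (log axis), blue where adjusted p was 0.05 or less and grey elsewhere, with bars of 1 standard error on the miR-34 strands (orange circles) and miR-449a-5p (black diamond). miR-34c-5p lies at -1.30 and miR-34a-5p, at a much lower level, at -3.11.

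miR-449a-5p has the same seed as the miR-34 5p strands and was the only miR-449 strand in the table. It had 2, 9 and 4 counts in the progenitor libraries and 4, 1 and 1 in the whole kidney libraries, and the groups overlapped. The log2 fold change was 0.95 with a standard error of 0.78 (edgeR's quasi-likelihood test, adjusted p = 0.41). Its mean was 11.7 CPM (SD 7.41, n = 3) against 6.03 CPM (SD 5.19, n = 3), far below that of miR-34c-5p in either group.

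A list of miRNAs described as raised by p53, through transcription or through processing of the precursor, held 17 strands, all of them tested. Of these, 9 are also in the lists of cell type markers used here. In all, 7 were lower in nephron progenitors past the threshold, 1 was higher and 9 did not pass, where 90 of all 525 miRNAs (17.1%) were lower and 102 were higher. The median log2 fold change was -0.57, beside -0.01 over all miRNAs. Of the 7 lower strands, 6 are among those markers, such as miR-143-3p of smooth muscle, with a log2 fold change of -1.33, and miR-192-5p of tubules, with -2.11. The remaining one was miR-22-3p, with a log2 fold change of -0.65 (edgeR's quasi-likelihood test, adjusted p = 0.029), named here after its value was seen. miR-141-3p, of epithelium, had no counts in nephron progenitors and was at least 4.61-fold lower, taking 3 counts per library as the floor. The strand that was higher was miR-16-1-3p, with a mean of 576 CPM (SD 165, n = 3) against 305 CPM (SD 28.9, n = 3) and a log2 fold change of 0.92.

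Markers of epithelium and endothelium differed between the groups far more than miR-34c-5p did. All 9 epithelial strands (miR-200 family, miR-203 and miR-205) were lower in nephron progenitors past the threshold. Their summed level was 305, 451 and 150 CPM in the progenitor libraries and 24878, 26321 and 22800 CPM in the whole kidney libraries. Nephron progenitors thus held 1.22% of the whole kidney level of the epithelial strands, beside 40.7% for miR-34c-5p. miR-200a-3p was the most abundant of them, with 105 CPM (SD 67.5, n = 3) against 12440 CPM (SD 1205, n = 3). miR-141-3p and miR-200b-5p were at 0 in all progenitor libraries, and miR-200b-5p was at least 13.9-fold lower. miR-203-3p, a miRNA of skin and other epithelia, had a log2 fold change of -3.44. The median log2 fold change of the list was -6.46, or -5.50 with the strands without counts at their bound.

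Both endothelial strands, of miR-126a, were lower past the threshold. Their sum was 419, 595 and 578 CPM in the progenitor libraries and 20132, 21311 and 18150 CPM in the whole kidney libraries. Nephron progenitors held 2.67% of the whole kidney level, most of it miR-126a-3p, and no endothelial strand was at 0. miR-126a-3p had a log2 fold change of -5.23 and miR-126a-5p of -5.13.

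Among the nephron progenitor libraries, miR-34c-5p was at 39.0%, 48.4% and 34.5% of its whole kidney mean. The epithelial sum was at 1.24%, 1.83% and 0.607% in the same libraries, the same order of libraries on a much lower scale. The endothelial sum, at 2.11%, 2.99% and 2.91%, had another order, with MNP1 lowest. miR-34a-5p was at 6.61%, 5.84% and 21.2%, which rest on 1, 1 and 3 counts. Their counting intervals overlap (0.03 to 5.57 counts for MNP1 and for MNP2, 0.62 to 8.77 for MNP6, exact Poisson). The order of the libraries is thus not resolved for miR-34a-5p, and orders of 3 libraries can also match by chance. The part of epithelial or endothelial RNA in the miR-34 levels was not tested.

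In the other marker lists the differences were smaller, and over all miRNAs 17.1% were lower. Of 4 tubule strands 2 were lower, with sums of 879, 854 and 1070 CPM in the progenitor libraries and 2866, 2928 and 2116 CPM in the whole kidney libraries. The most abundant, miR-192-5p, fell by 2.11 on the log2 scale and miR-194-5p by 1.59. The others did not pass the test, with log2 fold changes of -0.19 for miR-204-5p and 1.45 for miR-194-2-3p. Of 5 erythroid strands 4 were lower, with sums of 391, 283 and 176 CPM against 1495, 1486 and 762 CPM. miR-451a, the most abundant in whole kidney, had a log2 fold change of -2.50, miR-144-3p of -2.73 and miR-486a-5p of -1.31. No tubule or erythroid strand was at 0 in all progenitor libraries.

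The list of stroma and smooth muscle held 10 names, of which miR-199a-3p and miR-199b-3p had identical counts in every library and are taken as 1 strand. Of the 9 strands 2 were lower and 1 was higher, near the share over all miRNAs (90 lower and 102 higher of 525), and the median log2 fold change was 0.17. The sums were 37322, 49543 and 50329 CPM in the progenitor libraries and 76323, 88177 and 73391 CPM in the whole kidney libraries. The most abundant, miR-143-3p, was at 39.8% of its whole kidney level, close to the 40.7% of miR-34c-5p, and miR-145a-5p had a log2 fold change of -1.86. miR-199b-5p, of fibroblasts, was higher in nephron progenitors with a log2 fold change of 0.79. Of 6 leukocyte strands none was lower and 1 was higher, again near that share. This was miR-223-5p, with no counts in whole kidney and a level at least 1.68-fold higher in nephron progenitors. The leukocyte sums, 150, 159 and 84.1 CPM against 111, 117 and 73.0 CPM, overlapped. The most abundant of these strands in nephron progenitors, miR-142a-3p, had a log2 fold change of 0.74 and did not pass the test.

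The miRNAs whose profile was most like that of miR-34c-5p were found by the Pearson correlation of log2 CPM over the 6 libraries, among miRNAs with a mean of at least 20 counts. The first 5 of 278 were miR-200b-3p, miR-200a-5p, miR-200a-3p, miR-126a-5p and miR-429-3p, with correlations from 0.992 to 0.996. All of these are markers of epithelium or, for miR-126a-5p, of endothelium. They share with miR-34c-5p the gap between the groups and the order of the nephron progenitor libraries, but not the size of the difference, since miR-200b-3p had a log2 fold change of -6.46. For miR-34a-5p the first 5 of 279 were miR-450b-5p, miR-3470b, miR-375-3p, miR-3470a and miR-200c-3p, with correlations from 0.980 to 0.995. miR-450b-5p, from a miRNA cluster on the X chromosome, was at 78.8 CPM in nephron progenitors against 225 CPM in whole kidney. With 6 libraries in 2 separate groups, these values mostly reflect the gap between the groups and describe these libraries only.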

How the data were processed

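Adapters had been removed with BBDuk before alignment to mm10 by Bowtie2 2.2.3, and miRDeep2 had quantified known miRBase miRNAs. The authors deposited expected counts, not normalized, in 792 rows that pair a mature miRNA with a precursor. Here 3 rows with fractions were rounded, and per library the highest count over a mature miRNA's rows was kept. The 525 miRNAs whose counts summed to over 10 were tested with edgeR 4.0.16 (TMM, quasi-likelihood, Benjamini-Hochberg) in R 4.3.3. Standard errors are the absolute log2 fold change over the square root of F. DESeq2 (1.42.0 here), the tool behind the study's reported calls, and limma-voom (limma 3.58.1) were alternatives. Log2 CPM for correlations had a prior count of 2. Single values were compared by exact permutation. Hairpins were placed with GENCODE M21.

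Columns MNP6 and MWK6 match no single sample name, so they were assigned to a group by prefix and have no replicate number. Replicates differed by more than counting noise (chi-square per degree of freedom from 2.90 to 55.0). Scripts were tested on simulated data. Most named miRNAs are the family, miR-449, the most abundant and the extreme called strands of each list, and the 5 most alike in profile. Outside this rule, the tubule strands that did not pass and the stroma strands with identical counts are also named. So is the lower p53-linked strand that is in no marker list, chosen after its value was seen. The members and lists were chosen with earlier results of these data known. Other alternatives varied scaling (also leaving out the 10 most abundant miRNAs), the filter, the use of rows, a replicate block and the set of libraries, each left out in turn.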

Additional observations from a re-analysis of the deposited data

How the results depend on the processing

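miR-34c-5p and miR-34a-5p were lower past the threshold in every alternative that could test them (17 and 16). Asking for over 10 counts in each library removed every strand of the family but miR-34c-5p and left 120 miRNAs past the threshold in place of 192. Library totals in place of TMM moved the median of all miRNAs by 0.20, and the log2 ratio of the mir-34b/c locus was then -1.07. The log2 ratio of the mir-34a locus was from -4.04 (without MNP6) to -2.85 with one library left out. For miR-34b-5p the log2 fold change was -1.11 in DESeq2's Wald test, where the call was lost, and from -1.45 to -0.92 with one library left out, lost without MWK1 or MWK6. Both groups carry the replicate numbers 1 and 2. In the 4 libraries so numbered, miR-34b-5p was not past the threshold with a replicate block (-0.81; 153 miRNAs past the threshold) or without it (-0.81; 134), and miR-34b-3p changed sign in both (-0.17 and -0.21). The differences between replicates 1 and 2 had a correlation of 0.039 between the groups. It takes in miRNAs with few counts, whose differences hold much counting noise, so it cannot show whether the numbers pair the samples. No label links the numbers to litters, and the samples were treated as unpaired. Both groups came from 3 litters, and whole kidney was what the digestion left, so libraries of the groups may share litters, but which do is not stated. miR-34b-3p was from -0.18 to 1.32 with one library left out and never past the threshold. The cause of these changes was not tested. With one library left out, shares moved by less than 1 SD pooled over the groups, but the difference changed sign for the share of miR-34c-5p (-0.48 to 1.69 percentage points) and of miR-34b-5p (-0.37 to 1.57), and not for the 5p arm of mir-34b (-17.2 to -9.81) or the mir-34a locus (-3.31 to -2.35). The use of rows could not move shares, since each strand has 1 row. Depth limits miR-34a-5p, miR-34b-3p and miR-449a-5p, whose counts were 13 or fewer in every library.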
